A study of Mus musculus with 9 samples.

Results

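The genes of the extracellular matrix and of hepatic stellate cells form a group of 52 of the 54532 genes in the count table. They were picked by name as collagens, laminins, proteoglycans, elastic fibre proteins, adhesive glycoproteins, matrix enzymes and their inhibitors, growth factors and receptors, and stellate cell genes. Liver RNA was sequenced from male C57BL/6 wild-type mice in 3 groups with 3 libraries each, and the submitters describe the samples as independent biological replicates. The old Fabp4 shRNA mice were 20 months old and had received, at 14 months, adeno-associated virus AAV9 carrying a short hairpin RNA against Fabp4, a fatty acid binding protein of adipocytes and macrophages. The old control mice were also 20 months old and had received the same amount of AAV9 with a negative control hairpin. In both old groups the virus went into the tail vein and into the subcutaneous fat depot, so it was not aimed at the liver alone. The young mice were 8 weeks old, and the labels name no injection for them, so age and virus cannot be told apart in any comparison of old with young. Each group held 15 mice, of which 3 gave a library. The tissue label is liver, while the extraction note names NRVMs, and albumin (Alb) at 47650 to 126200 CPM in all 9 libraries fitted the liver label. CPM is a gene's count scaled to the size of its library by edgeR.

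Hepatic stellate cells lie between hepatocytes and the sinusoidal endothelium, store vitamin A as retinyl esters and, when activated, become the main source of fibrillar collagen in the scarred liver. Platelet-derived growth factor and transforming growth factor beta (TGF-beta) are the classic signals for their growth and their matrix production. Collagens are secreted as triple helices, are cross-linked outside the cell by lysyl oxidases, and are cut by metalloproteinases that TIMP proteins inhibit. Small leucine-rich proteoglycans coat the fibrils, collagen VI forms beaded filaments around cells, and collagen IV, laminins, nidogen and perlecan build basement membranes. Some matrix proteins of the liver, among them vitronectin and plasma fibronectin, are made by hepatocytes and secreted into blood. In bulk liver RNA, fewer cells of a type and less RNA per cell cannot be told apart.

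One young library stood apart before any comparison. Its column carries a number that no young sample title has, and it is called the unnumbered young library here. The young samples in the labels are 1, 4 and 5, and no column carries the number 4. The summed level of 20 skeletal muscle genes was 4980 CPM in it, 115 CPM in old Fabp4 shRNA library 3 and 9.79 to 15.9 CPM in the other 7 libraries. Muscle and its connective tissue also express matrix genes, and 16 of the 50 tested members had their highest value of the 9 libraries in the unnumbered young library, against 9.77% of all tested genes. In 7 members, Lama2, Fbln1, Fbln2, Fbn1, Mgp, Timp3 and Des, it held at least 2 times the highest value of the other 8, against 1.16% of all tested genes. The FPKM table holds another library under the same name. FPKM is the fragment count scaled to gene length and depth. Whole reads recovered from that FPKM column gave 20.0 CPM for the muscle genes, and the counts and medians over the members in each comparison with young mice are therefore given with all 9 libraries, without this library, and with the recovered reads in its place. Single genes are given from all 9 libraries unless another fit is named. The smooth muscle list, which includes the member Des, summed to 232 CPM in the unnumbered young library, against 47.6 to 106 CPM in the other 8. Des alone gave 173 CPM of that sum, so it does not show a rise of smooth muscle genes in general. Portal fibroblast and mesothelial genes stood at 138 CPM in that library, against 38.3 to 85.3 CPM. Fabp4 itself was at 11.2, 3.81 and 7.58 CPM in old Fabp4 shRNA livers, 7.21, 13.6 and 10.9 CPM in old control livers, and 3.40, 2.67 and 64.8 CPM in young livers, so the old groups overlapped for the targeted gene. Values of 3 libraries are always given in the order 1, 3 and 6 for old Fabp4 shRNA, 1, 2 and 5 for old control, and 1, 5 and unnumbered for young.

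The members spanned a wide range of levels. Per length, vitronectin (Vtn) was the highest at 1489 ± 50.6 FPKM in old control livers (SD, n = 3). Col18a1, whose C-terminal fragment is endostatin, followed at 80.1 ± 15.0 FPKM, and fibronectin (Fn1) at 62.7 ± 15.4 FPKM. In the 3 old control libraries Col18a1 had 95.7, 78.8 and 65.7 FPKM and Fn1 61.55, 78.65 and 47.8 FPKM. Their order was not tested. Decorin (Dcn) reached 28.5 ± 10.2 FPKM, biglycan (Bgn) 10.3 ± 2.69 FPKM and Mmp14 9.18 ± 1.54 FPKM. The chains of collagen I were far lower, at 0.672 ± 0.409 FPKM for Col1a1 and 0.829 ± 0.343 FPKM for Col1a2. The lowest member was Lama2, the laminin chain of muscle basement membrane, at 0.0353 ± 0.0129 FPKM. Timp1 and Lox did not pass the filter on low counts, so 50 members were tested.

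Most matrix and stellate cell genes had higher values in old control than in young livers, but no member passed the test over all 9 libraries. Of the 50 tested members, 36 had a log2 fold change above 0, against 51.1% of all tested genes. The median was 0.37, against 0.01 over all 14025 tested genes. By edgeR's quasi-likelihood test with Benjamini-Hochberg adjustment over all tested genes, 0 members were called at an adjusted p of 0.05, where 0.0357% of all genes were called higher and 0.0% lower. The lowest adjusted p was 0.192, for Efemp1 and Pdgfra. At an unadjusted p of 0.05, 12 members were higher and 0 lower, against 6.42% and 4.07% of all tested genes. DESeq2 called 4 members higher, Dcn, Efemp1, Pdgfra and Col6a3, where it called 0.78% of all genes, and limma-voom called 0 (0.0214% of all genes), with 11 higher at an unadjusted p of 0.05 (5.63% of all genes). In 11 members, Dcn, Bgn, Reln, Col14a1, Adamts1, Efemp1, Pdgfra, Col6a3, Tgfb1, Fbln5 and Hgf, every old control library lay above every young one, against 8.89% of all genes, and in Vtn every one lay below, against 8.26%.

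**Figure D1:**
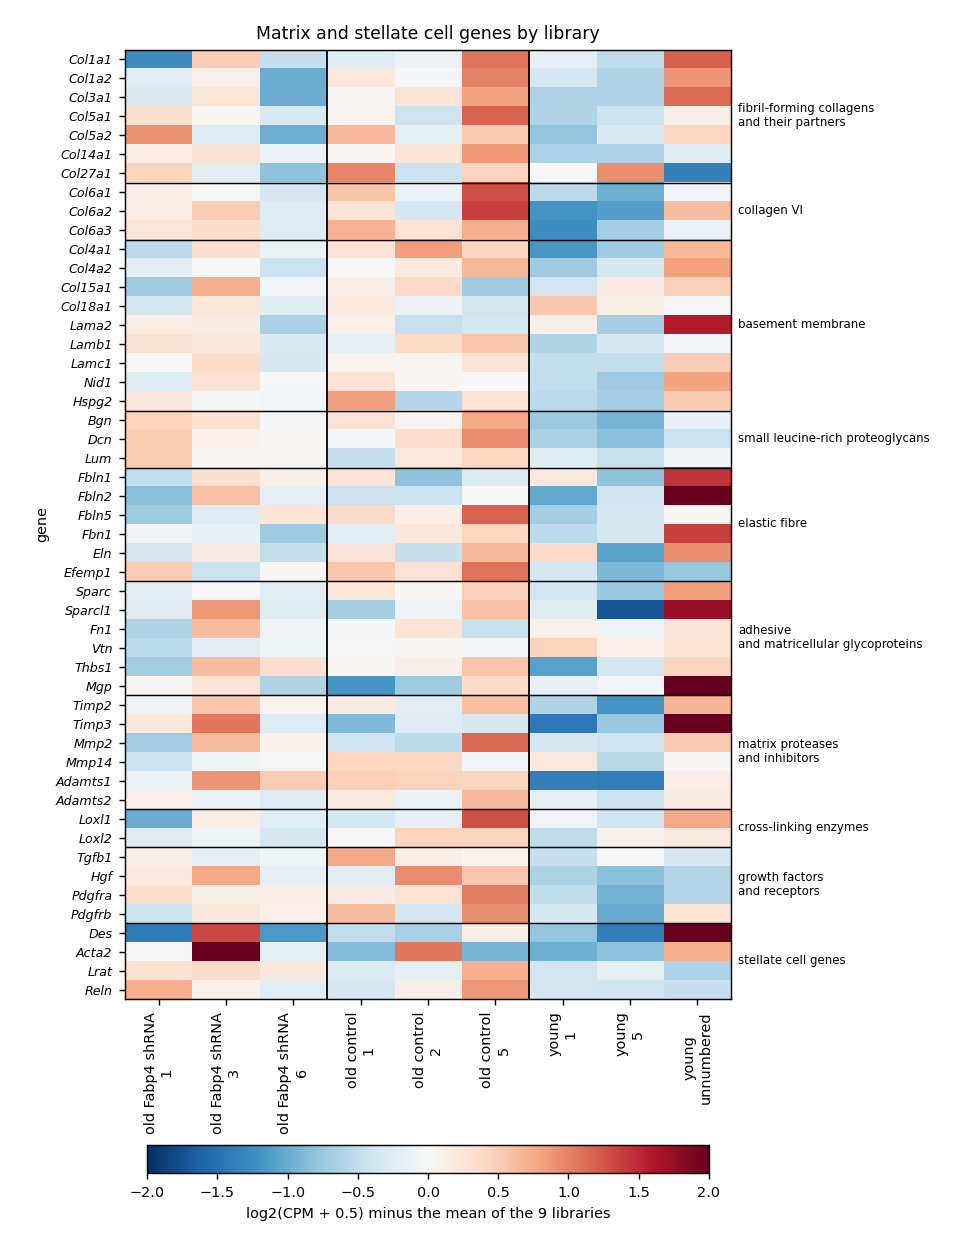
Log2(CPM + 0.5) of each tested member minus its mean over the 9 libraries (colour), with genes in rows by class and libraries in columns by group. Young libraries 1 and 5 are mostly blue (median deviation -0.49 and -0.57), while the unnumbered young library (0.44) and old control library 5 (0.55) are mostly red.

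Without the unnumbered young library, 43 of 50 members were above 0, against 51.4% of all genes, and the median was 0.84. Then 22 members were higher at an unadjusted p of 0.05, against 5.64% of all genes, with 0 lower (4.75%) and 0 called over all genes (0.0208% of all genes called higher). In 28 members the 3 old control libraries lay above both numbered young libraries, against 16.4% of all genes. With the recovered reads the median was 0.81, 24 members were higher at an unadjusted p of 0.05, against 7.88% of all genes, and Adamts1 was called, where 0.0646% of all genes were called higher. In 24 members the old control and young groups then did not overlap with old control above, against 10.9% of all genes. The upward shift also leaned on old control library 5, which held the highest value of its group in 32 of 50 members, against 28.9% of all tested genes. Without that library the median over the remaining 8 libraries, which still include the unnumbered young one, was 0.17. The median deviation of the members from their mean over the 9 libraries was 0.09 and 0.04 in old control libraries 1 and 2. It was -0.49 and -0.57 in young libraries 1 and 5. The lists of cholangiocyte markers and of activated stellate cell and myofibroblast markers share osteopontin (Spp1), so their sums are not independent. Cholangiocyte markers summed to 182 CPM in old control library 5, against 85.0 and 101 CPM in the other old control libraries. Activated stellate cell and myofibroblast markers summed to 227 CPM, against 129 and 134 CPM. The member Acta2, an actin of myofibroblasts, did not follow that sum, at 1.40, 6.70 and 1.33 CPM in old control libraries 1, 2 and 5. The part of these cells in the members' values was not tested.

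**Figure D2:**
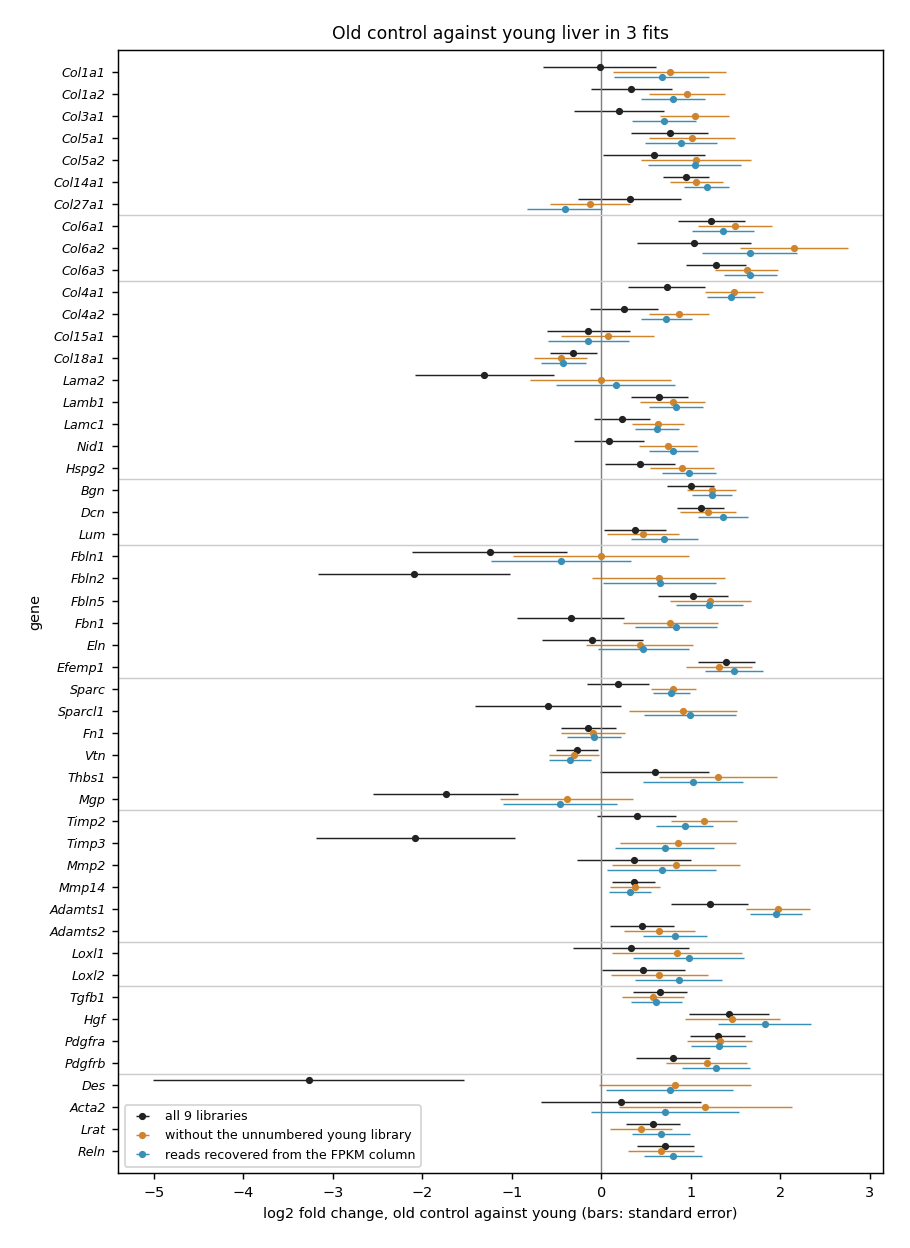
Log2 fold change of each tested member in old control against young livers, with standard errors, from all 9 libraries (black), without the unnumbered young library (orange) and after replacing its counts by the recovered reads (blue), by class. Des, Fbln2, Timp3 and Mgp lie below 0 with all 9 libraries, at -3.27, -2.09, -2.08 and -1.74, and Des, Fbln2 and Timp3 lie above 0 in the other fits.

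Among the small leucine-rich proteoglycans, decorin and biglycan separated old from young livers in every library. Decorin, which binds collagen fibrils and sequesters TGF-beta (ENSMUSG00000019929, chr10:97479609-97518143, GRCm38), had 178, 134 and 129.5 CPM in old Fabp4 shRNA livers, 122, 159 and 242 CPM in old control livers and 79.8, 69.8 and 92.4 CPM in young livers. All old libraries of both groups lay above all young ones, the unnumbered library included. The log2 fold change in old control against young livers was 1.11 ± 0.27 (SE), with an adjusted p of 0.204 by edgeR and 0.0167 by DESeq2. It was 1.19 ± 0.31 without the unnumbered young library, which is close to the value with it. Biglycan, its X-linked paralogue, had 68.1, 61.3 and 48.2 CPM in old Fabp4 shRNA livers, 60.9, 52.2 and 85.2 CPM in old control livers and 29.4, 25.7 and 44.0 CPM in young livers. Again no old library reached down to the young range, and the fold change was 1.00 ± 0.26, with an adjusted p of 0.254. Lumican (Lum), which regulates fibril diameter, was far lower, at 6.04, 4.19 and 4.28 CPM in old Fabp4 shRNA livers, 2.85, 4.86 and 5.62 CPM in old control livers and 3.40, 2.90 and 3.90 CPM in young livers. The old control and young groups overlapped for Lum, with a fold change of 0.38 ± 0.35 and an adjusted p of 0.724. Summed over the 3 genes, the class stood at 252, 199 and 182 CPM in old Fabp4 shRNA livers, 186, 216 and 332 CPM in old control livers and 112, 98.5 and 140.3 CPM in young livers.

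**Figure D3:**
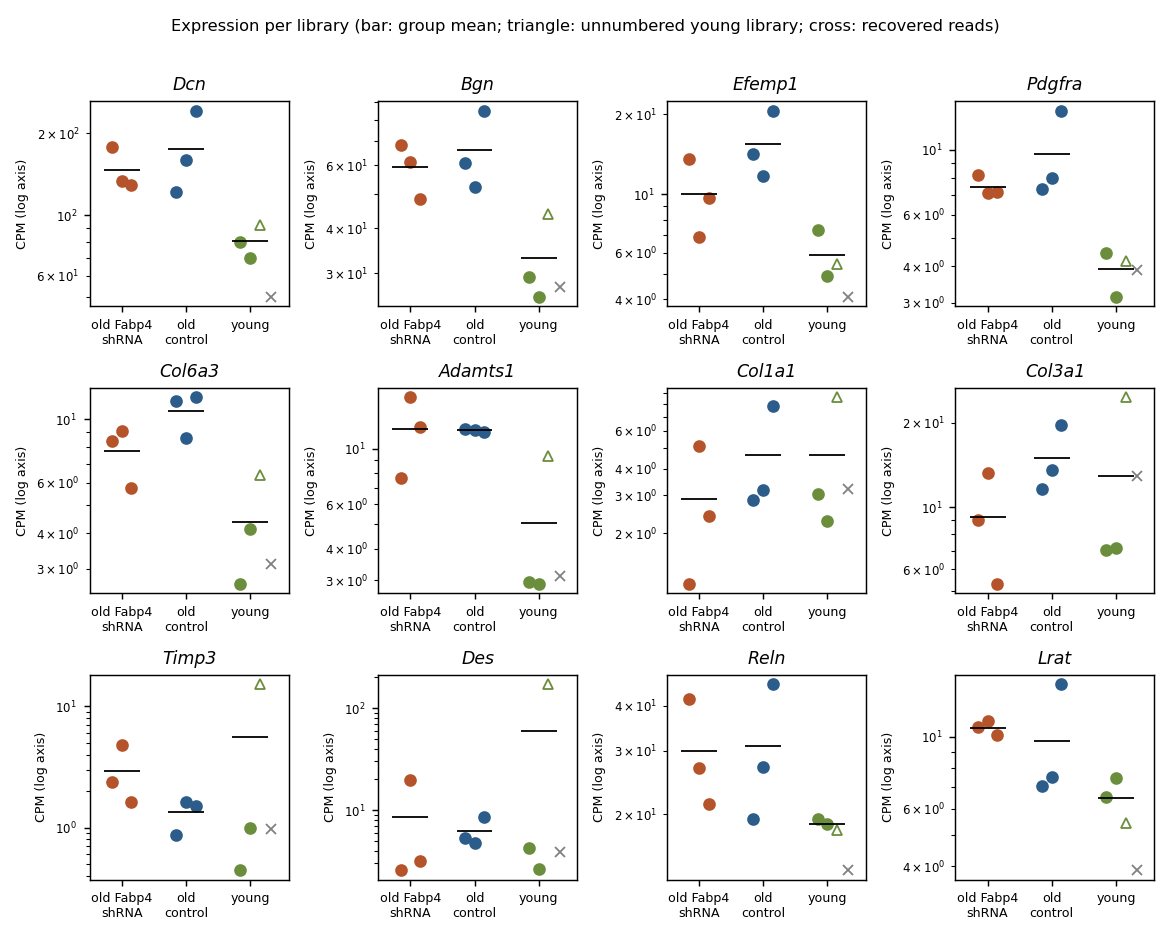
CPM per library on log axes for 12 members in old Fabp4 shRNA, old control and young livers (points), with group means (bars), the unnumbered young library (open triangle) and its recovered reads (cross). In Dcn, Bgn, Efemp1, Pdgfra, Col6a3 and Adamts1 the old control points lie above all young points, while in Timp3 and Des the triangle lies far above every other point.

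All 3 chains of collagen VI, the microfibrillar collagen that anchors cells to the interstitial matrix, had higher means in old control than in young livers. Col6a3 (chr1:90765923-90843971) had 8.37, 9.10 and 5.75 CPM in old Fabp4 shRNA livers, 11.6, 8.61 and 11.9 CPM in old control livers and 2.66, 4.12 and 6.38 CPM in young livers. The old control values did not overlap the young ones, and the fold change was 1.28 ± 0.34, with an adjusted p of 0.258 by edgeR and 0.0380 by DESeq2. Col6a1 had 9.04, 8.05 and 6.32 CPM in old Fabp4 shRNA livers, 12.3, 7.43 and 20.6 CPM in old control livers and 5.47, 3.89 and 7.79 CPM in young livers. Here old control library 2 lay just below the unnumbered young library, and the fold change was 1.23 ± 0.37 (adjusted p 0.319). Col6a2 had a fold change of 1.03 ± 0.64 with all 9 libraries and 2.15 ± 0.60 without the unnumbered one. The class median of 1.23 was the highest of the 10 classes with all 9 libraries, as was its median of 1.63 without the unnumbered young library.

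Most fibril-forming collagens had smaller fold changes in old control against young livers than the collagen VI chains, a difference that was not tested. Collagen I alpha 1 (Col1a1), the main chain of scar collagen, had 1.16, 5.13 and 2.40 CPM in old Fabp4 shRNA livers, 2.85, 3.16 and 7.83 CPM in old control livers and 3.03, 2.29 and 8.62 CPM in young livers. The groups overlapped fully, old control library 5 and the unnumbered young library were both high, and the fold change was -0.02 ± 0.63 (adjusted p 0.995). Without the unnumbered library it was 0.77 ± 0.63. Collagen III (Col3a1), the reticular collagen that coassembles with collagen I, had 8.98, 13.3 and 5.33 CPM in old Fabp4 shRNA livers, 11.6, 13.5 and 19.7 CPM in old control livers and 7.02, 7.17 and 24.7 CPM in young livers. Its highest value was also in the unnumbered young library, while both numbered young libraries lay below every old control one. The fold change was 0.20 ± 0.50 with all libraries and 1.05 ± 0.39 without the unnumbered one, with adjusted p values of 0.915 and 0.385. Col5a1, whose product nucleates fibrils, had 6.72, 5.46 and 4.18 CPM in old Fabp4 shRNA livers, 5.58, 3.83 and 12.6 CPM in old control livers and 3.33, 3.82 and 5.81 CPM in young livers and a fold change of 0.76 ± 0.43 (adjusted p 0.551). Col14a1, a fibril-associated collagen, had 22.9, 25.5 and 18.7 CPM in old Fabp4 shRNA livers, 21.2, 25.02 and 38.2 CPM in old control livers and 13.2, 13.3 and 17.3 CPM in young livers. It was the only member of this class whose old control and young libraries did not overlap over all 9 libraries, with a fold change of 0.95 ± 0.25 and an adjusted p of 0.258. Col27a1 had a fold change of 0.32 with all libraries and -0.13 without the unnumbered one.

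The 2 chains of collagen I did not keep a fixed ratio across libraries. The Col1a1 to Col1a2 ratio in FPKM was 0.336, 1.17 and 1.26 in old Fabp4 shRNA livers and 0.602, 0.790 and 0.935 in old control livers. It was 0.958 and 0.887 in young libraries 1 and 5, and 0.822 in the other young library of the FPKM table. The lowest ratio came from old Fabp4 shRNA library 1, with 19 counts of Col1a1. The Dcn to Bgn ratio ran from 2.28 to 2.81 in old Fabp4 shRNA livers, from 2.09 to 3.18 in old control livers, and was 2.84 in both numbered young libraries and 1.91 in the other young library of the FPKM table, the lowest of the 9.

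Among basement membrane genes, collagen IV had higher values in old control livers than in the numbered young ones. Col4a1 (chr8:11198423-11312826), which forms the collagen IV network with Col4a2, had 10.3, 18.8 and 13.6 CPM in old Fabp4 shRNA livers, 18.4, 27.1 and 20.5 CPM in old control livers and 6.43, 9.01 and 24.1 CPM in young livers. The unnumbered young library lay inside the old control range and the numbered ones far below it. The fold change was 0.73 ± 0.43 with all 9 libraries (adjusted p 0.565) and 1.48 ± 0.33 without the unnumbered one (adjusted p 0.208). Lamb1, a laminin beta chain, had 7.82, 7.39 and 4.96 CPM in old Fabp4 shRNA livers, 5.46, 8.39 and 9.34 CPM in old control livers and 3.92, 4.81 and 6.00 CPM in young livers and a fold change of 0.65 ± 0.31 (adjusted p 0.492). The other members of the class ran from -1.30 for Lama2 to 0.43 for Hspg2, which encodes perlecan. Nid1, encoding the linker nidogen, had a fold change of 0.09 with all libraries and 0.74 without the unnumbered one. Col18a1 had a negative fold change in all 3 fits, at -0.31, -0.45 and -0.42.

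The promoter windows of Col4a1 and Col4a2 are shown because both chains had higher values in old control than in numbered young livers and the genes lie head to head on chromosome 8. The RefSeq windows of 300 bases, from 250 before to 50 after each start (GRCm38.p6), lie at chr8:11312777-11313076 on the minus strand and chr8:11312555-11312854 on the plus strand. Their starts are 21 bases apart, and the windows share 78 bases. Capitals mark matches on either strand to the TATA box letters TATAAA, to the GC box letters GGGCGG, to the CCAAT box, to the Smad box letters CAGACA, or to the AP-1 letters TGANTCA.
Col4a1: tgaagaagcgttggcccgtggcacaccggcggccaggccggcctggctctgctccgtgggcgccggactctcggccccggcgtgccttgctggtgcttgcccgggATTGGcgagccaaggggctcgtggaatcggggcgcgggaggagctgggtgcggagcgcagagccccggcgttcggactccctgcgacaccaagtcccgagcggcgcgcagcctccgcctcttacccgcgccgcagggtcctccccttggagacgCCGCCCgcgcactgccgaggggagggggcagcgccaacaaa
Col4a2: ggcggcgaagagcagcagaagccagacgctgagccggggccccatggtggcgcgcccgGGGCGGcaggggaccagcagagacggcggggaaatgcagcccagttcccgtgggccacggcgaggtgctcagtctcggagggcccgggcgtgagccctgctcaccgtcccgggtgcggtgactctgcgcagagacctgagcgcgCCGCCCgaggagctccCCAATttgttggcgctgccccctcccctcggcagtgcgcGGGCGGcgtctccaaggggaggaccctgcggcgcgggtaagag
Both windows hold CCAAT and GGGCGG matches and neither holds TATAAA. The only GGGCGG match of Col4a1 lies in the shared bases and is also 1 of the 3 of Col4a2. Of 32817 promoter windows in the RefSeq table, 37.4% hold CCAAT, 35.6% GGGCGG and 13.6% TATAAA. Of the 36 members found in the table, with 41 windows, 12 had CCAAT, 27 GGGCGG and 3 TATAAA in at least 1 window. These are counts of genes, while the shares are of windows. Such matches only describe the letters of the windows.

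Elastic fibre genes split into those set by the unnumbered young library and those not. Efemp1 (ENSMUSG00000020467, chr11:28853204-28926743), the fibulin-like glycoprotein EFEMP1, had 13.6, 6.89 and 9.66 CPM in old Fabp4 shRNA livers, 14.2, 11.7 and 20.6 CPM in old control livers and 7.32, 4.88 and 5.43 CPM in young livers. Every old control library lay above every young one, and the unnumbered library lay between the numbered young ones. The fold change was 1.40 ± 0.32, with an adjusted p of 0.192 by edgeR and 0.0101 by DESeq2, and 1.32 ± 0.37 without the unnumbered library. Fbln5, the fibulin that organises elastin assembly, had 2.93, 4.25 and 6.37 CPM in old Fabp4 shRNA livers, 6.86, 5.74 and 12.3 CPM in old control livers and 3.03, 3.97 and 5.24 CPM in young livers. Its old control and young groups did not overlap either, with a fold change of 1.02 ± 0.39 (adjusted p 0.407). Fbln2 had 11.1 CPM in the unnumbered young library and 0.370 to 2.15 CPM in the other 8, and its fold change was -2.09 ± 1.07 with it and 0.64 ± 0.75 without it. Fbn1, encoding fibrillin, had -0.34 with it and 0.77 without it.

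Efemp1 and Pdgfra had the lowest adjusted p of all members in old control against young livers, and the promoter windows of both are shown for that reason. The Efemp1 window lies at chr11:28852955-28853254 and the Pdgfra window at chr5:75152001-75152300, both on the plus strand (RefSeq, GRCm38.p6), with capitals marking the same 5 motifs.
Efemp1: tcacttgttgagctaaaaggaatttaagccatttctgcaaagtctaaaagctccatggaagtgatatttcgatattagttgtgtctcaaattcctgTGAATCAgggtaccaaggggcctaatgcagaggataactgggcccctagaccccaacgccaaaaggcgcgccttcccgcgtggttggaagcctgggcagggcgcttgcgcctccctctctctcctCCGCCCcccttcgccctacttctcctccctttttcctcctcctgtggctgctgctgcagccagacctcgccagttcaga
Pdgfra: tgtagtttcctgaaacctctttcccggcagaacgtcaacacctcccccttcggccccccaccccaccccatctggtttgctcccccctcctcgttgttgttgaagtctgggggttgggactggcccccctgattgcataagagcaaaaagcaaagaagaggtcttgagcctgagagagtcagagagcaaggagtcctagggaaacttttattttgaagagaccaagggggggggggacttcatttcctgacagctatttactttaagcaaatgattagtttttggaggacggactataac
The Efemp1 window holds 1 GGGCGG match and 1 TGANTCA match, a motif present in 7.81% of all windows and in 2 of the 36 members found. The Pdgfra window holds none of the 5 motifs.

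The adhesive glycoproteins that hepatocytes secrete did not have higher means in old control than in young livers. Vtn, which carries PAI-1 in plasma, had 2193, 2715 and 2980.0 CPM in old Fabp4 shRNA livers, 3152, 3244 and 3099 CPM in old control livers and 4272, 3376 and 3809 CPM in young livers. Old control values lay below all young ones and old Fabp4 shRNA values below all old control ones, yet the fold change in old control against young livers was -0.27 ± 0.24 (adjusted p 0.713). Fn1 had 520.2, 1208 and 755 CPM in old Fabp4 shRNA livers, 768, 949.6 and 583 CPM in old control livers and 849.6, 744 and 944 CPM in young livers, with a fold change of -0.14 ± 0.31 (adjusted p 0.900). The groups overlapped fully for Fn1. Mgp, the matrix Gla protein that inhibits calcification, had 1.34, 1.66 and 0.679 CPM in old Fabp4 shRNA livers, 0.291, 0.589 and 1.83 CPM in old control livers and 1.11, 1.22 and 6.71 CPM in young livers. Its fold change of -1.74 ± 0.81 (adjusted p 0.484) became -0.38 ± 0.74 without the unnumbered library, which alone lay above 2 CPM. Sparc, a collagen-binding matricellular protein, had a fold change of 0.19 ± 0.35 with all 9 libraries and 0.81 ± 0.25 without the unnumbered one. Summed over the 49 members other than Vtn, Fn1 and Col18a1, levels were 595, 611 and 481 CPM in old Fabp4 shRNA livers, 602, 595 and 862 CPM in old control livers, and 370, 339 and 762 CPM in young livers.

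Among matrix enzymes, Adamts1 had the largest fold change in old control against young livers without the unnumbered library. Of all members only the collagen chain gene Col6a2 had a larger one. This secreted protease cleaves versican and aggrecan (ENSMUSG00000022893, chr16:85793827-85803113), and it had 7.63, 16.0 and 12.2 CPM in old Fabp4 shRNA livers, 11.9, 11.8 and 11.7 CPM in old control livers and 2.96, 2.90 and 9.32 CPM in young livers. Old control values were nearly identical to each other, the numbered young libraries lay at about 3 CPM, and the unnumbered one lay between them and the old control libraries. The fold change in old control against young livers was 1.21 ± 0.43 with all 9 libraries (adjusted p 0.385) and 1.98 ± 0.36 without the unnumbered one (adjusted p 0.148). With the recovered reads, 3.11 CPM in the third young library, Adamts1 rose by 1.95 ± 0.29 on the log2 scale, with an adjusted p of 0.0419 by edgeR. It was the only member called in that fit. Its promoter window on the minus strand, at chr16:85803064-85803363 (RefSeq, GRCm38.p6), is shown as that of the only member called by edgeR in that fit.
Adamts1: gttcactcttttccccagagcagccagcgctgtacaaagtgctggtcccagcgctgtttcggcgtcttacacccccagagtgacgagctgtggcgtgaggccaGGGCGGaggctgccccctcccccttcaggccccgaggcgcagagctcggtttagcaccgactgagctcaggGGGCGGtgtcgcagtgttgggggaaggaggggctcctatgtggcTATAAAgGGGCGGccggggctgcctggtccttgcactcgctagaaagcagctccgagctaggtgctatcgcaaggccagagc
It holds 1 TATAAA match and 3 GGGCGG matches.

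The TIMP inhibitors Timp2 and Timp3 differed in sign with all 9 libraries and not in the other fits. Timp2, which also takes part in the activation of Mmp2, had fold changes in old control against young livers of 0.40 with all 9 libraries, 1.15 without the unnumbered one and 0.93 with the recovered reads. Timp3, a matrix-bound inhibitor, had 2.38, 4.80 and 1.62 CPM in old Fabp4 shRNA livers, 0.872, 1.62 and 1.51 CPM in old control livers and 0.444, 0.992 and 15.3 CPM in young livers. The unnumbered young library was more than 3 times higher than any other, and the fold change was -2.08 ± 1.11 with it (adjusted p 0.547), 0.86 ± 0.64 without it and 0.71 with the recovered reads. Timp1, the inhibitor induced in fibrotic liver, had 2, 7 and 3 counts in old Fabp4 shRNA livers, 1, 1 and 10 in old control livers and 2, 0 and 0 in young livers. These lie around a floor of 3 counts, and no fold change is given. The gelatinase Mmp2 had 0.916, 3.09 and 1.93 CPM in old Fabp4 shRNA livers, 1.22, 1.10 and 4.61 CPM in old control livers and 1.33, 1.22 and 2.81 CPM in young livers. Old control library 5 was the only old control one above the young range, and the fold change was 0.36 ± 0.64 (adjusted p 0.872), or 0.83 ± 0.72 without the unnumbered young library. Mmp14, the membrane-bound activator of Mmp2, was far more abundant in counts and had a fold change of 0.36 ± 0.24.

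Lysyl oxidases were among the lowest members. Lox had 1, 4 and 7 counts in old Fabp4 shRNA livers, 8, 11 and 10 in old control livers and 2, 1 and 8 in young livers, too few for the filter. Loxl1, which cross-links elastin, had 0.488, 1.66 and 1.202 CPM in old Fabp4 shRNA livers, 1.05, 1.25 and 4.29 CPM in old control livers and 1.41, 0.992 and 2.81 CPM in young livers. Only old control library 5 stood above the young range, and the fold change was 0.33 ± 0.64 (adjusted p 0.883), or 0.85 ± 0.72 without the unnumbered young library. Loxl2, which acts on collagen IV, had 0.977, 1.16 and 0.888 CPM in old Fabp4 shRNA livers, 1.28, 1.91 and 1.89 CPM in old control livers and 0.739, 1.37 and 1.53 CPM in young livers, with a fold change of 0.47 ± 0.46 (adjusted p 0.745).

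The 4 growth factor and receptor genes all had higher means in old control than in young livers. Pdgfra (ENSMUSG00000029231, chr5:75152292-75198215), a platelet-derived growth factor receptor of mesenchymal cells, had 8.18, 7.12 and 7.16 CPM in old Fabp4 shRNA livers, 7.32, 8.02 and 13.6 CPM in old control livers and 4.44, 3.13 and 4.15 CPM in young livers. All 6 old libraries lay above all young ones. The fold change in old control against young livers was 1.30 ± 0.31, with an adjusted p of 0.192 by edgeR and 0.0162 by DESeq2, and it was 1.32 ± 0.37 without the unnumbered library. Pdgfrb, the receptor induced on activated stellate cells, had 4.58, 7.50 and 6.90 CPM in old Fabp4 shRNA livers, 10.1, 4.78 and 12.6 CPM in old control livers and 5.03, 2.90 and 7.79 CPM in young livers. Its groups overlapped, with a fold change of 0.80 ± 0.42 (adjusted p 0.516), and of 1.18 ± 0.45 without the unnumbered young library. Hgf, a hepatocyte mitogen made by stellate and endothelial cells, had 2.99, 4.74 and 2.19 CPM in old Fabp4 shRNA livers, 2.15, 5.37 and 3.98 CPM in old control livers and 1.48, 1.22 and 1.53 CPM in young livers. No old library overlapped the young range, and the fold change was 1.43 ± 0.45 (adjusted p 0.325). Tgfb1, the ligand that drives collagen synthesis in stellate cells, had 6.41, 5.08 and 5.49 CPM in old Fabp4 shRNA livers, 10.3, 6.40 and 6.19 CPM in old control livers and 4.14, 5.88 and 4.47 CPM in young livers. Old control values lay above all young ones by a small margin, with a fold change of 0.66 ± 0.30 (adjusted p 0.474).

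Of the 4 stellate cell genes proper, 3 had a fold change above 0 in old control against young livers with all 9 libraries, and all 4 without the unnumbered young library. Lrat, which esterifies retinol for storage, had 10.7, 11.1 and 10.1 CPM in old Fabp4 shRNA livers, 7.03, 7.50 and 14.5 CPM in old control livers and 6.51, 7.48 and 5.43 CPM in young livers. Old control libraries 1 and 2 lay inside or beside the young range, and the fold change was 0.58 ± 0.30 (adjusted p 0.516). Reelin (Reln), a secreted glycoprotein of stellate cells, had 41.7, 26.8 and 21.4 CPM in old Fabp4 shRNA livers, 19.5, 27.1 and 46.0 CPM in old control livers and 19.4, 18.9 and 18.1 CPM in young livers. The young values were tightly grouped, the old control ones were not, and the fold change was 0.72 ± 0.32 (adjusted p 0.464). Desmin (Des), an intermediate filament protein of stellate cells in rodents and of all muscle, had 2.56, 19.9 and 3.19 CPM in old Fabp4 shRNA livers, 5.35, 4.71 and 8.59 CPM in old control livers and 4.21, 2.67 and 173 CPM in young livers. The unnumbered young library exceeded every other by more than 8 times, and in the recovered reads Des was at 3.88 CPM. The fold change was -3.27 ± 1.74 with that library and 0.82 ± 0.85 without it, with adjusted p values of 0.554 and 0.754. Acta2, the smooth muscle actin of myofibroblasts and vessel walls, had 2.99, 13.3 and 2.51 CPM in old Fabp4 shRNA livers, 1.40, 6.70 and 1.33 CPM in old control livers and 1.26, 1.45 and 5.24 CPM in young livers. Its fold change was 0.22 with all 9 libraries and 1.16 ± 0.96 without the unnumbered one. Its highest value was in old Fabp4 shRNA library 3, where smooth muscle myosin (Myh11) was also at 21.4 CPM, against 1.11 to 7.15 CPM elsewhere, and the part of vessel wall in it was not tested.

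Among 19 marker genes of quiescent stellate cells outside the members, the summed level was 283, 226 and 204 CPM in old Fabp4 shRNA livers, 278, 221 and 297 CPM in old control livers, and 219, 155 and 264 CPM in young livers. Of the 18 tested, 16 had a fold change above 0 in old control against young livers and 0 were called. Liver endothelial markers summed to 443, 246 and 225 CPM in old Fabp4 shRNA livers, 464, 240.5 and 378 CPM in old control livers and 224, 179 and 206 CPM in young livers. The endothelial sums of all old libraries of both groups thus lay above those of all young ones, in the same direction as most members. The margin was small, with 225 CPM in old Fabp4 shRNA library 6 and 224 CPM in young library 1. Kupffer cell and macrophage markers had 10 of 12 fold changes above 0 in old control against young livers, with a median of 0.92, although their sums overlapped between the groups. Cholangiocyte markers had 7 of 7 above 0, with a median of 0.62, and red blood cell markers 0 of 7, with a median of -1.82. Activated stellate cell and myofibroblast markers had 7 of 11 above 0 (median 0.71). Portal fibroblast and mesothelial markers had 4 of 11 (-0.16), smooth muscle markers 0 of 6 (-0.59) and hepatocyte markers 4 of 10 (-0.18). The share over all tested genes was 51.1%. Without the unnumbered young library, portal fibroblast and mesothelial markers had 8 of 12 above 0 and smooth muscle markers 6 of 7. The 12 adipocyte markers, which include Car3 and Cd36 that hepatocytes also express, summed to 1305, 649.5 and 204 CPM in old Fabp4 shRNA livers, 987, 1060.0 and 606 CPM in old control livers and 1117, 1559 and 1069 CPM in young livers. Of the 8 tested, 4 were above 0 with a median of 0.04, and 6 with a median of 1.13 without the unnumbered young library. Their defining genes Adipoq and Plin1 were at most 0.957 and 0.736 CPM in any library. In old control against young livers no marker of these lists was called by edgeR in any of the 3 fits. In old Fabp4 shRNA against young livers with the recovered reads, 2 red blood cell markers were called. So was 1 activated stellate cell and myofibroblast marker. In that fit 33 of the 13922 tested genes were called higher and 29 lower. The part of these cells in the members' values was not tested.

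The hairpin against Fabp4 was set against the negative control hairpin at the same age. Most members had lower values with the Fabp4 hairpin, none passed the test, and the differences were small against the spread between mice. Of 50 tested members, 13 had a fold change above 0 in old Fabp4 shRNA against old control livers, against 48.6% of all tested genes. The median was -0.26, against -0.01 over all genes. By edgeR 0 members were called, where 0.0% of all genes were called in either direction, and the lowest adjusted p was 0.728. At an unadjusted p of 0.05, 0 members were higher and 1 lower, against 3.27% and 3.48% of all genes, and DESeq2 and limma-voom each called 0 members and had 2 lower at an unadjusted p of 0.05, against 3.81% and 3.45% of all genes. The groups did not overlap in 4 members that were lower, Vtn, Sparc, Col4a2 and Loxl2, against 5.67% of all genes, and in 1 that was higher, Timp3, against 6.02%. These shares lie near the background. Without old control library 5 the median was -0.05, so most of the shift came with that library.

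The member with the lowest p was Fbln5, at 2.93, 4.25 and 6.37 CPM in old Fabp4 shRNA livers and 6.86, 5.74 and 12.3 CPM in old control livers. The groups overlapped in 1 library each, and the fold change was -0.88 ± 0.39, which gave an unadjusted p of 0.0417 and, after adjustment by edgeR, 0.728. Col6a1 had 9.04, 8.05 and 6.32 CPM in old Fabp4 shRNA livers and 12.3, 7.43 and 20.6 CPM in old control livers, with a fold change of -0.79 ± 0.37 (adjusted p 0.742). Efemp1 had a fold change of -0.63 ± 0.31 (adjusted p 0.742). All 7 fibril-forming collagens and partners and all 3 collagen VI chains were below 0, with class medians of -0.57 and -0.51. The spread was wide, and the 95% interval for Col1a1 ran from -2.06 to 0.73 on the log2 scale. The proteoglycans had narrower intervals, from -0.81 to 0.32 for Dcn around a fold change of -0.25, and from -0.71 to 0.40 for Bgn around -0.16. Adamts1 was close to 0, at 0.02 ± 0.42. Timp3 and Acta2 had the largest positive fold changes, 1.14 ± 1.10 and 1.01 ± 0.88, and both had their highest old value in old Fabp4 shRNA library 3, the library with 115 CPM of skeletal muscle genes.

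**Figure D4:**
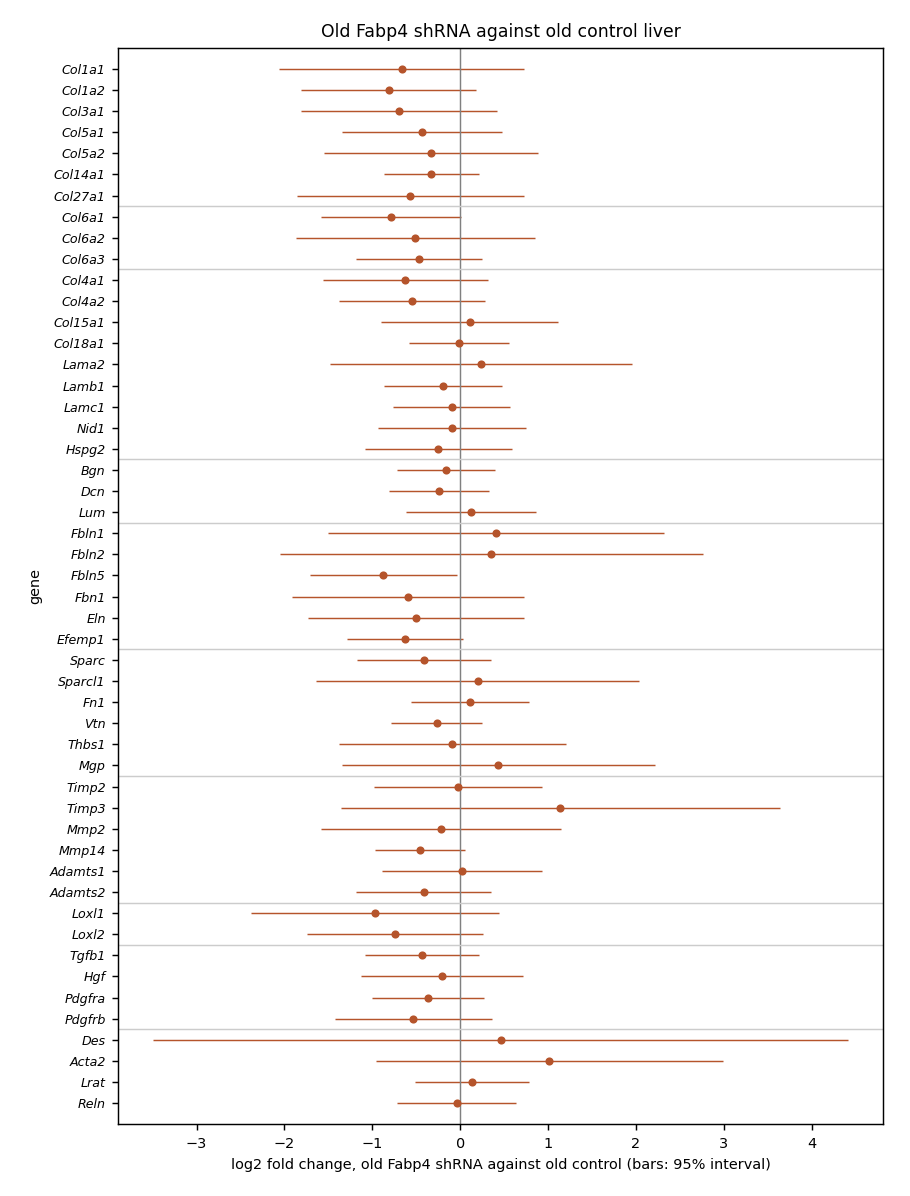
Log2 fold change of each tested member in old Fabp4 shRNA against old control livers (points) with 95% intervals (bars), by class. Of the 50 points 37 lie below 0, and the interval excludes 0 in Fbln5 alone.

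The marker lists of other cells were read for the old groups too, and 0 of their genes were called. Activated stellate cell and myofibroblast markers, 15 genes that include vimentin and osteopontin, summed to 92.8, 87.7 and 83.0 CPM in old Fabp4 shRNA livers, against 129, 134 and 227 CPM in old control livers. Of the 11 tested, 7 had a fold change above 0, with a median of 0.19 that differs in sign from the change of the sums. Cholangiocyte markers summed to 38.3, 52.3 and 54.5 CPM in old Fabp4 shRNA livers, against 85.0, 101 and 182 CPM in old control livers, with 0 of 7 tested above 0. Kupffer cell and macrophage markers had 0 of 12 above 0 and a median of -1.06, with sums of 238, 124 and 202 CPM in old Fabp4 shRNA livers, against 684, 229.6 and 209.5 CPM in old control livers. The activated stellate cell and cholangiocyte lists share osteopontin, so their sums are not independent. Both sums were lower in every old Fabp4 shRNA library than in any old control one, while the macrophage sums overlapped. The part of these cells in the members' values was not tested.

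Old Fabp4 shRNA livers were also set against young livers, with the same young libraries as above, so the values of both comparisons share them. Over all 9 libraries 27 of 50 members were above 0, against 52.2% of all genes, and the median was 0.12. By edgeR 0 members were called, where 0.0499% of all genes were called higher and 0.00713% lower. At an unadjusted p of 0.05, 9 members were higher and 1 lower, against 4.43% and 4.5% of all genes, and DESeq2 and limma-voom called 0 members, with 9 and 8 higher at that level (4.98% and 3.91% of all genes). In 8 members, Dcn, Bgn, Reln, Col14a1, Lrat, Pdgfra, Hgf and Lum, every old Fabp4 shRNA library lay above every young one, against 6.79% of all genes, and in Vtn below, against 6.67%. The fold change was 0.87 ± 0.27 for Dcn (adjusted p 0.428), 0.84 ± 0.26 for Bgn (adjusted p 0.428) and 0.94 ± 0.30 for Pdgfra (adjusted p 0.443). Without the unnumbered young library 43 of 50 members were above 0, against 53.3% of all genes, with a median of 0.62. Then 12 were higher at an unadjusted p of 0.05, against 6.95% of all genes, and 22 did not overlap and were higher, against 15.9%. With the recovered reads 43 of 50 were again above 0, against 53.5%, with a median of 0.63. In that fit 20 were higher at an unadjusted p of 0.05, against 9.75%, and 19 did not overlap and were higher, against 11.6%. At that level 2 members were lower, Vtn and Col27a1, where 1034 of all 13922 tested genes were lower. Vtn alone did not overlap and was lower, against 1446 of all tested genes. With the recovered reads Adamts1 rose by 2.00 ± 0.29 on the log2 scale, with an adjusted p of 0.0217 by edgeR, where 0.237% of all genes were called higher. Col1a1 and Col3a1 were at 0.04 and 0.03 in that fit, next to 0.

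The members were read beside 5 lists of other matrix and pathway genes. In old control against young livers 0 genes of the 5 lists were called by edgeR over all 9 libraries. TGF-beta signalling genes were above 0 in 21 of 27 tested, with a median of 0.34 and 6 higher at an unadjusted p of 0.05, against 6.42% of all genes. With the unnumbered young library left out the TGF-beta median was 0.52, and after its replacement by recovered reads it was 0.56. Other matrix glycoproteins and proteoglycans were above 0 in 25 of 37, with a median of 0.34 and 8 higher at that level, and the median was 0.72 and 0.78 in those other fits. Other matrix proteases and inhibitors were above 0 in 19 of 22, with a median of 0.61 with all 9 libraries and of 0.96 and 0.94 in the other fits. Genes of collagen folding and secretion were above 0 in 11 of 19, with medians of 0.19, 0.18 and 0.11 in the 3 fits, and other collagens in 6 of 11, with medians of 0.66, 0.55 and 0.37.

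Igfbp7, an angiomodulin of the vascular matrix, had the lowest p of these lists, with 47.9, 53.8 and 50.5 CPM in old Fabp4 shRNA livers, 79.3, 62.0 and 104 CPM in old control livers and 34.1, 24.6 and 41.4 CPM in young livers. Old control values lay above all others, and the fold change in old control against young livers was 1.29 ± 0.24, with an adjusted p of 0.165 by edgeR and 0.00168 by DESeq2. With the recovered reads Igfbp7 rose by 1.38 ± 0.23 on the log2 scale, with an adjusted p of 0.0492 by edgeR. Its fold change in old Fabp4 shRNA against old control livers was -0.69 ± 0.24 (adjusted p 0.728). Emilin1, an elastic fibre glycoprotein that restrains TGF-beta, had 0.96 ± 0.23 in old control against young livers. Its adjusted p was 0.204 by edgeR and 0.0246 by DESeq2. The laminin chain gene Lamc3 had 0.97 ± 0.33, with an adjusted p of 0.366 by edgeR. Spon2, encoding the secreted matrix protein spondin 2, had 4.15, 42.9 and 26.2 CPM in old Fabp4 shRNA livers, 18.7, 34.1 and 20.6 CPM in old control livers and 5.03, 4.50 and 7.54 CPM in young livers. Its fold change was 2.10 ± 0.69 in old control against young livers, with an adjusted p of 0.378 by edgeR and 0.0246 by DESeq2. In old Fabp4 shRNA against young livers it was 2.10 ± 0.69, with an adjusted p of 0.461 by edgeR and 0.0314 by DESeq2, which called 0.365% of all genes higher there, and old Fabp4 shRNA library 1 lay below every young library. Serpinh1, the collagen chaperone HSP47, had 4.40, 16.9 and 8.52 CPM in old Fabp4 shRNA livers, 14.3, 16.6 and 15.5 CPM in old control livers and 4.95, 3.74 and 7.28 CPM in young livers, with a fold change of 1.53 ± 0.42 (adjusted p 0.274 by edgeR and 0.0427 by DESeq2). All young values lay below all old control ones, and old Fabp4 shRNA library 1 lay in the young range. The prolyl hydroxylases P4ha1 and P3h3 had 1.09 ± 0.53 and 0.62 ± 0.39.

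In the TGF-beta list the corepressor genes Tgif1 and Skil had 0.97 ± 0.28 and 1.22 ± 0.38, and the endothelial coreceptor endoglin (Eng) 0.91 ± 0.27, with adjusted p values of 0.296, 0.323 and 0.297. Connective tissue growth factor (Ctgf) had 13.6, 7.56 and 11.8 CPM in old Fabp4 shRNA livers, 9.65, 5.89 and 14.3 CPM in old control livers and 3.25, 1.68 and 6.83 CPM in young livers. Its fold change was 1.33 ± 0.47 in old control against young livers (adjusted p 0.385) and 0.14 ± 0.45 in old Fabp4 shRNA against old control livers. In old Fabp4 shRNA against young livers with the recovered reads, 2 genes of this list were called, Skil (1.70 ± 0.31, adjusted p 0.0393) and Ctgf (2.17 ± 0.38, adjusted p 0.0357), where 0.237% of all genes were called higher. The proteases and collagens with the smallest p were low in counts, with 2.75 ± 1.07 for Loxl4, 2.75 ± 1.13 for Mmp12 and 1.36 ± 0.62 for Adamts14, 1.23 ± 0.57 for Col13a1, 1.06 ± 0.54 for Col11a2 and 0.71 ± 0.42 for Col12a1, none with an adjusted p under 0.419. In old Fabp4 shRNA against old control livers 0 genes of the 5 lists were called, and the list medians ran from -0.29 for other proteases and inhibitors to -0.08 for TGF-beta signalling.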

How the data were processed

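RNA of 9 mouse livers was measured by sequencing. The submitters' processing notes name HISAT2 and GRCm38.p6, while the counter, strand setting and annotation release were not given in the sources. Unscaled whole-number counts per gene were deposited, and the deposited FPKM table holds fragments scaled by the authors to length and depth. Total counts ran from 14243344 to 17125440, so that 3 counts stand for 0.175 to 0.211 CPM. Floors cover counting error only, while the 95% intervals of fold changes come from the fit and include the spread between mice.

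Both tables were compared on 10483 genes. In 8 columns FPKM equalled the count times a constant of the gene and one of the library (relative tolerance 0.001) for 100% of genes, and in the unnumbered young column for 0.229%. Whole reads recovered from that FPKM column came out whole within 0.05 reads for 100% of 17747 values.

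The test was edgeR 4.0.16 under R 4.3.3 (filterByExpr by group, TMM scaling, robust quasi-likelihood fit to all 9 libraries, 1 mean per group, two-sided, Benjamini-Hochberg over 14025 genes), checked on simulated data. The SE is the log2 fold change divided by the root of F. Alternatives were DESeq2 1.42.0, limma-voom (limma 3.58.1), other scalings and filters, log2(FPKM + 1) and log2(FPKM + 0.1), a replicate block, and leaving out libraries. Positions come from GENCODE M21 (GRCm38), which holds 54409 of the 54532 gene IDs, and 31 members overlap another annotated gene there, so their counts may include its reads. The members, lists and tests were chosen with earlier results of these data known. Members named with a value per library were those called in any of 3 fits, the 2 with the smallest p of each class, the 3 with the smallest p for the hairpin, and a set of known markers. Of the other lists, genes called by edgeR in any of 3 fits or by DESeq2 and the 3 with the smallest p were named. Promoter windows come from RefSeq (GRCm38.p6). 36 of 52 members matched, and Dcn, also picked by its p, is not shown.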

Additional observations from a re-analysis of the deposited data

How the results depend on the processing

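With all 9 libraries 0 members were called in any comparison by edgeR. In old control against young livers the count of members called higher was 1 with the recovered reads (0.0646% of all genes), 5 with no filter on low counts (0.368% of all genes called higher), 4 with DESeq2 (0.78%) and 1 on log2(FPKM + 0.1) (0.136%). In old Fabp4 shRNA against young livers it was 1 with the recovered reads (0.237%), 1 on log2(FPKM + 1) (0.15%) and 1 on log2(FPKM + 0.1) (0.264%). The FPKM scales use the other young library and so change the samples too. For the other choices the cause was not tested. The median over members in old control against young livers was 0.37, and became 0.81 with the recovered reads, 0.84 without the unnumbered young library and 0.84 without it and old Fabp4 shRNA library 3. In old Fabp4 shRNA against young livers it was 0.12, and became 0.63 with the recovered reads and 0.62 without the unnumbered young library. Leaving out 1 numbered library at a time called 0 members in each comparison. The medians then ran from 0.17 (without old control library 5) to 0.57 (without old control library 2) in old control against young livers. They ran from -0.40 to -0.05 (without old control library 5) in old Fabp4 shRNA against old control livers. In old Fabp4 shRNA against young livers they ran from -0.10 (without old Fabp4 shRNA library 3) to 0.15, and were also below 0 without young library 1 (-0.03) and young library 5 (-0.04). With no scaling beyond total counts the median of all genes moved to 0.16 for old control against young, 0.13 for the hairpin at old age and 0.31 for the hairpin group against young.

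With the animal number as a replicate block, the medians were 0.92 in old control against young livers and 0.58 in old Fabp4 shRNA against young livers. The numbers 2, 3 and 6 occur in 1 library each, and the block absorbs those libraries and the unnumbered young one. That fit therefore compares only the libraries numbered 1 and 5, with 1 old Fabp4 shRNA library among them, and its calls are not given. No label says that a number pairs mice. Deviations of same-numbered libraries correlated at r = 0.112 for number 1 and 0.03 for number 5 between old control and young, so the samples are taken to share only a number.

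Timp1 and Lox, at 0 to 11 counts a library, rest on few reads, which limits what their values can show.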
